A study of Mus musculus with 24 samples.

Results

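Axon guidance ligands and receptors were followed across the 24 RNA-seq libraries of C2C12 cells and primary myoblasts (PMs). Genes were taken by name, as every semaphorin of classes 3 to 7, plexin, neuropilin, Eph receptor, ephrin, Slit, Robo, netrin, netrin-G, Unc5 receptor and Dcc in the table, and 71 of its 28109 genes matched. They comprise 37 ligands (20 semaphorins, 8 ephrins, 6 netrins and 3 Slits) and 34 receptors (14 Eph receptors, 9 plexins, 2 neuropilins, 4 Robos, and 5 Unc5 and Dcc receptors).

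C2C12 is an established line of mouse myoblasts, which the labels assign to the C3H strain, and PMs were isolated from the muscle of 3 to 4 week-old C57BL/6 mice. Both were transfected with siRNA. The control siRNA targets luciferase (siControl), and the other arm received siRNAs for both Tead1 and Tead4 (siTead1/4). RNA was taken at day 0, which is 24 hours after transfection, and after 3 and 6 days of differentiation in 2% horse serum. Each of the 12 groups has 2 libraries, called replicate 1 and replicate 2. C2C12 cells were grown in DMEM without matrigel and PMs in IMDM on matrigel, so cell type, strain and culture cannot be told apart. How many mice gave the PMs of a replicate is not stated in the sources used here, and p-values measure the spread between these libraries.

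Axon guidance molecules are secreted or membrane-bound cues and the receptors that read them, named for steering growing axons and also known from vessels, migrating cells and muscle. Semaphorins are bound by plexins, with neuropilins as co-receptors for most of the secreted class 3. Ephrins are membrane-tethered and are bound by Eph receptor tyrosine kinases on neighbouring cells, where signals can run in both directions. Slits are secreted ligands of Robos, and netrins are ligands of Dcc and the Unc5 receptors. In muscle, several of these cues are known to act on the nerve endings that reach the fibre, and some on satellite cells and fusing myoblasts.

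Total counts on genes ran from 25453830 to 52784510 in the C2C12 libraries and from 32571583 to 51110723 in the PM libraries. Levels were expressed in CPM, the count scaled for depth, with library sizes adjusted by the TMM method of edgeR. A gene was called where the quasi-likelihood test of edgeR gave an adjusted p under 0.05 and the log2 fold change passed 1 in either direction. The targeted genes were checked first. In siControl C2C12 libraries Tead4 lay between 18.7 and 150 CPM and Tead1 between 70.5 and 151 CPM, against 4.28 to 57.2 CPM and 4.5 to 77 CPM in siTead1/4 libraries. In PMs Tead4 lay between 59.5 and 197 CPM and Tead1 between 151 and 289 CPM, against 11.1 to 59.2 CPM and 50.1 to 142 CPM. Tead4 was called lower at days 0 and 3 in C2C12 cells and at all 3 days in PMs, and Tead1 at days 0 and 3 in PMs alone. The siTead1/4 replicates of C2C12 cells stood apart from each other. Tead1 was at 28.9 CPM in replicate 1 and 4.5 CPM in replicate 2 at day 0, and the chi-square per gene between replicates was 113 to 287 in these 3 groups against 16.5 to 67.9 in the other groups.

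Most guidance genes were expressed. The mean level over the 12 libraries of a cell type reached 1 CPM for 51 of the 71 genes in C2C12 cells and 58 in PMs, and 100 CPM for 8 and 5 of them. The filter on low counts kept 60 genes in the fit of C2C12 cells, 64 in that of PMs and 65 in the fit over both. Dcc, the netrin receptor, had no count in any library, and Epha5, Epha8, Epha10, Ntng1 and Unc5d never passed 0.615 CPM. Slit3, Plxnc1, Robo3, Robo4 and Epha6 were tested in PMs and not in C2C12 cells. Sema5b was tested in C2C12 cells only. The levels of the untested genes are given without a test.

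Per kilobase of exonic length, the receptor Plxnb2, a plexin that binds class 4 semaphorins, had the highest mean of all 71 genes, at 61.9 CPM per kb over the 24 libraries. Its range was 57.7 to 86.5 CPM per kb in C2C12 cells and 33.5 to 70.3 CPM per kb in PMs. The netrin receptor Unc5b followed with a mean of 33.9 CPM per kb, then Plxna1, a receptor used by class 3 and class 6 semaphorins, with 29.2 CPM per kb. Sema7a, a GPI-anchored semaphorin, had a mean of 28.9 CPM per kb and Epha2, an Eph receptor common on dividing epithelial cells, 22.1 CPM per kb. In C2C12 cells the range of Plxnb2 lay above that of Plxna1 (15.6 to 29.2 CPM per kb) and overlapped those of Unc5b, Sema7a and Epha2. In PMs it lay above that of Epha2 (5.36 to 32.4 CPM per kb) alone. These ranges span all days and both siRNAs, so they hold changes between groups as well as spread between replicates. They cannot show whether neighbours in this order differ, and the order was not tested. The second semaphorin, Sema3e, had a mean of 19.7 CPM per kb, and Nrp1, a co-receptor for class 3 semaphorins, 12.1 CPM per kb with nearly the same mean in C2C12 cells (12.4) as in PMs (11.9). Among ephrins, Efnb2 and Efnb1 had the highest means (14.1 and 9.73 CPM per kb), and among netrins Ntn4 and Ntn1 (13.7 and 7.45 CPM per kb).

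Slits and Robos were less abundant than these. Slit2 ranged from 0.796 to 8.37 CPM per kb in C2C12 cells and from 0.18 to 1.95 CPM per kb in PMs, and Robo1, a Slit receptor, from 2.31 to 22.2 CPM per kb there. The ranges of Slit3, Unc5a and Nrp2 did not overlap between the cell types. Slit3 did not pass 0.0121 CPM per kb in any C2C12 library and lay between 0.0684 and 7.3 CPM per kb in PMs. Unc5a, a netrin receptor, had a mean of 5.55 CPM per kb in PMs and 0.061 CPM per kb in C2C12 cells. Nrp2, the other neuropilin, went the other way, with 6.59 to 38.2 CPM per kb in C2C12 cells and 0.783 to 4.01 CPM per kb in PMs.

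**Figure D1:**
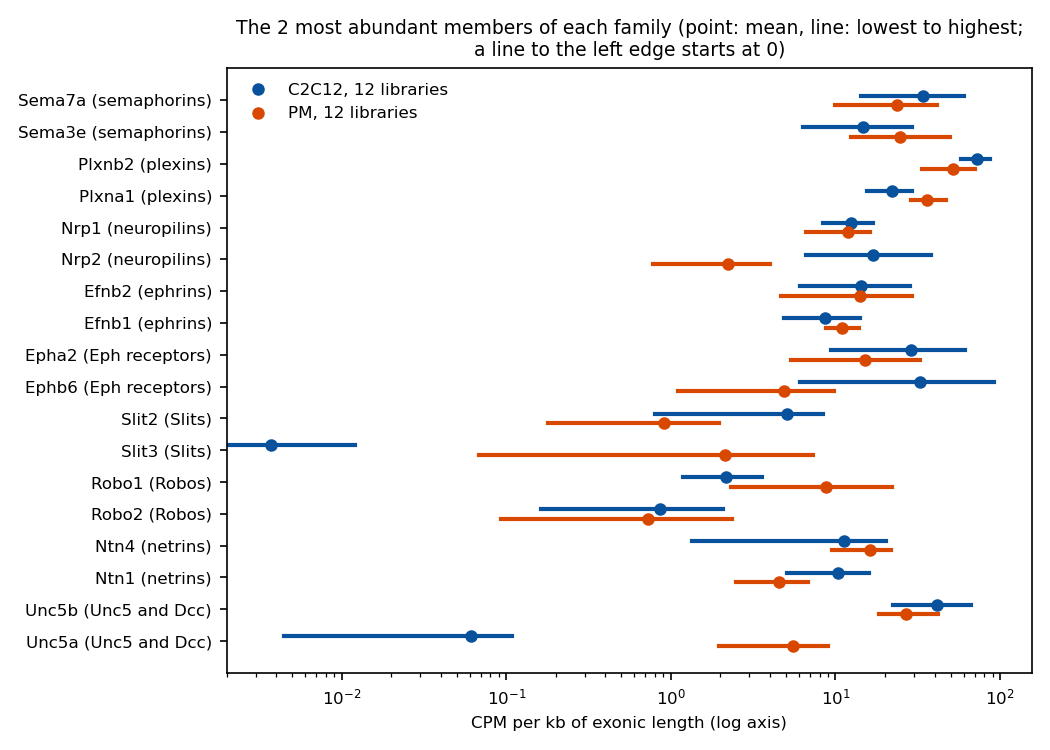
Level per kilobase of exonic length (log axis) of the 2 most abundant members of each family, as the mean over the 12 libraries of a cell type (points) and the lowest to highest library (lines), C2C12 in blue and PMs in orange. Plxnb2 has the highest means, Slit3 and Unc5a lie far to the left in C2C12 cells alone, and a line that meets the left edge starts at 0.

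Silencing of Tead1 and Tead4 in PMs raised several Eph receptors and semaphorins together with Robo2. At day 0, 5 of 64 tested guidance genes were called higher and 0 lower, where 1.50% and 1.10% of the 16144 tested genes were called. At day 3, 8 were called higher and 1 lower, against 2.10% and 1.20% of all genes, and at day 6, 2 were called higher and 0 lower, against 0.465% and 0.279%. The median log2 fold change of the tested guidance genes was 0.00 at day 0, 0.22 at day 3 and 0.21 at day 6, beside -0.01, 0.01 and 0.00 over all genes. Receptors made up 4 of the 5 genes at day 0 and 5 of the 8 at day 3, and 29 of the 64 tested genes. In each of these calls the 2 siTead1/4 libraries lay on 1 side of the 2 siControl libraries. The thresholds for a call nearly fix this outcome, so it is no separate support. With 2 libraries in each group, a lack of overlap also carries little weight for genes that were not called.

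Ephb1 (chr9:101824458-102257023 of mm9, minus strand), a receptor for B-class ephrins, was the only guidance gene called at all 3 days. It stood at 1.08 and 1.72 CPM in the siControl PMs of day 0 and at 3.74 and 5.12 CPM in the siTead1/4 PMs. At day 3 the siControl libraries were at 17.8 and 15 CPM and the siTead1/4 libraries at 68.3 and 65.8 CPM, and at day 6 at 16.1 and 18.0 CPM against 41.5 and 38.8 CPM. In both arms the level was thus higher at days 3 and 6 than at day 0. In the siTead1/4 arm, where days were not compared by a test, it was lower at day 6 than at day 3. At each day the siTead1/4 libraries were above the siControl libraries, with no overlap. On the log2 scale these differences were 1.68 ± 0.22, 2.03 ± 0.19 and 1.24 ± 0.18 (± standard error, adjusted p from edgeR = 0.0025, 6e-04 and 0.013).

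A-class Eph receptors moved in the same direction. Epha7 (chr4:28740281-28894649, plus strand), which binds A-class ephrins, was at 3.86 and 3.66 CPM in siControl and 13.6 and 9.76 CPM in siTead1/4 PMs at day 0, and at 1.85 and 3.26 CPM against 5.81 and 7.42 CPM at day 3. These were rises of 1.62 ± 0.27 and 1.36 ± 0.27 on the log2 scale (edgeR adjusted p = 0.0068 and 0.015). At day 6 it was at 3.33 and 3.88 CPM against 5.22 and 4.84 CPM, which did not pass the test (log2 fold change 0.48, edgeR adjusted p = 0.57). Epha3 (chr16:63543364-63863984, minus strand) rose at day 0 from 2.46 and 2.65 CPM to 7.26 and 5.51 CPM, a log2 fold change of 1.31 ± 0.27 (edgeR adjusted p = 0.016). Its levels at day 3, 4.12 and 6.37 CPM against 6.97 and 10.4 CPM, did not overlap either, with a log2 fold change of 0.71 that was not called.

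Epha4 (chr1:77363760-77511663, minus strand), an Eph receptor that binds ephrins of both classes, was at 10.7 and 8.06 CPM in siControl and 30.4 and 22.0 CPM in siTead1/4 PMs at day 3. That is a log2 fold change of 1.48 ± 0.38 (edgeR adjusted p = 0.041). At day 0 its libraries overlapped, with 3.45 and 6.2 CPM against 5.38 and 10.2 CPM. Epha6 (chr16:59653309-60605357, minus strand) was near the detection limit, with 2 counts over both siControl libraries of day 3. It reached 0.279 and 0.423 CPM in the siTead1/4 libraries, a ratio of 13 (95% counting interval 3.3 to 112) for which the fit gave an edgeR adjusted p of 0.018. At day 6 it was at 0.097 and 0.0326 CPM against 0.318 and 0.434 CPM, and was not called.

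Robo2 (chr16:73892551-74412070, minus strand) is a receptor for Slits. At day 0 it was at 0.89 and 1.04 CPM in siControl and 5.92 and 4.01 CPM in siTead1/4 PMs, and at day 3 at 3.17 and 1.54 CPM against 10.0 and 8.99 CPM. On the log2 scale these differences were 2.35 ± 0.41 and 2.01 ± 0.38 (adjusted p from edgeR = 0.0083 and 0.011). At day 6 the libraries still did not overlap, with 5.37 and 7.79 CPM against 12.7 and 22.4 CPM, but the log2 fold change of 1.41 did not pass the test (edgeR adjusted p = 0.1). The other Robos were not called. Robo1 in particular was at 172 and 192 CPM against 212 and 180 CPM at day 0, with a log2 fold change of 0.10 ± 0.27.

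Sema5a (chr15:32174568-32626096, plus strand), a transmembrane semaphorin, was the ligand called at both days 0 and 3. It stood at 17.6 and 11.5 CPM in siControl and 49.1 and 39.2 CPM in siTead1/4 PMs at day 0, and at 8.44 and 8.92 CPM against 35.9 and 28.9 CPM at day 3. On the log2 scale these differences were 1.59 ± 0.24 and 1.89 ± 0.25 (adjusted p from edgeR = 0.0048 and 0.0019). At day 6 it was at 8.96 and 7.24 CPM against 19.9 and 13.2 CPM (difference of 1.03 in log2, adjusted p from edgeR = 0.085). The siControl level fell after day 0, and the siTead1/4 libraries were above it on each day.

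Sema3d (chr5:12383166-12588943, plus strand), a secreted class 3 semaphorin, showed its difference late. At day 0 the libraries overlapped, with 40.9 and 53.8 CPM in siControl and 62.1 and 52.0 CPM in siTead1/4 PMs. In siControl PMs it was at 14.3 and 23.9 CPM at day 3 and 23.3 and 26.7 CPM at day 6, while the siTead1/4 PMs held 57.5 and 68.7 CPM and then 67.8 and 68.1 CPM. These differences were 1.71 ± 0.22 and 1.45 ± 0.22 on the log2 scale (edgeR adjusted p = 0.0019 and 0.016). Sema6b (chr17:56262508-56279766, minus strand), a transmembrane semaphorin, fell in both arms from about the same start, 80.4 and 109 CPM in siControl and 99.1 and 117 CPM in siTead1/4 PMs at day 0. At day 3 it was at 12.6 and 11.3 CPM against 33.2 and 22.5 CPM (log2 fold change 1.21 ± 0.24, edgeR adjusted p = 0.015), and at day 6 at 4.4 and 6.78 CPM against 7.36 and 5.67 CPM, which overlapped.

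Sema3f (chr9:107583833-107612806, minus strand) was the 1 guidance gene called lower in PMs. It is a secreted semaphorin that binds Nrp2. At day 3 it was at 6.62 and 8.27 CPM in siControl and 2.6 and 4.23 CPM in siTead1/4 PMs, a fall of 1.14 ± 0.28 on the log2 scale (edgeR adjusted p = 0.035). At day 6, when siControl PMs had 12.4 and 17.8 CPM and siTead1/4 PMs 9.58 and 9.77 CPM, it was not called. Slit3 also had lower siTead1/4 libraries at day 6, 16.9 and 17.5 CPM against 44.3 and 38.9 CPM, without a call (log2 fold change -1.27 ± 0.29, edgeR adjusted p = 0.073).

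Other gene lists also moved in siTead1/4 PMs. The 30 muscle differentiation genes, listed as a reference, summed to 18200 and 15200 CPM against 20100 and 18500 CPM in siControl at day 0, 77200 and 69100 CPM against 95600 and 88600 CPM at day 3, and 71000 and 75700 CPM against 78200 and 90400 CPM at day 6. Of the 29 tested, 4, 5 and 2 were called lower at these days and none higher, among them the myosin heavy chains Myh7 at days 0 and 3 and Myh8 at days 3 and 6. Single markers of other cells were called higher at day 0, where 1.50% of all genes were. These were Syp of 10 tested neuron markers, Egr2 of 10 Schwann cell, Tek of 12 endothelial and Fcer1g of 6 macrophage markers. The median log2 fold changes of these lists were 0.48, 0.35, 0.46 and -0.16. The summed Schwann cell markers were lower, at 142 and 133 CPM against 168 and 158 CPM. Vwf of endothelium was called higher at day 3, where the list median was -0.06. Dcn and Lum, of 10 tested fibroblast markers, were called lower at day 6, with a median of -0.26. Single calls do not describe a whole list. The summed neuron markers were lower in siTead1/4 PMs at day 0, with 62.1 and 55.4 CPM against 84.6 and 84.2 CPM. They were higher at day 3, with 74.7 and 90.3 CPM against 52.3 and 58.2 CPM. At day 6 they were again higher, with 88.4 and 87.9 CPM against 56.8 and 48 CPM. The median log2 fold change of the 10 tested neuron markers was 0.48, 0.39 and 0.06 at these days. The sum at day 0 thus ran opposite to the median, and the sums do not describe a shift of the whole list. The part of these lists in the guidance results was not tested.

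**Figure D2:**
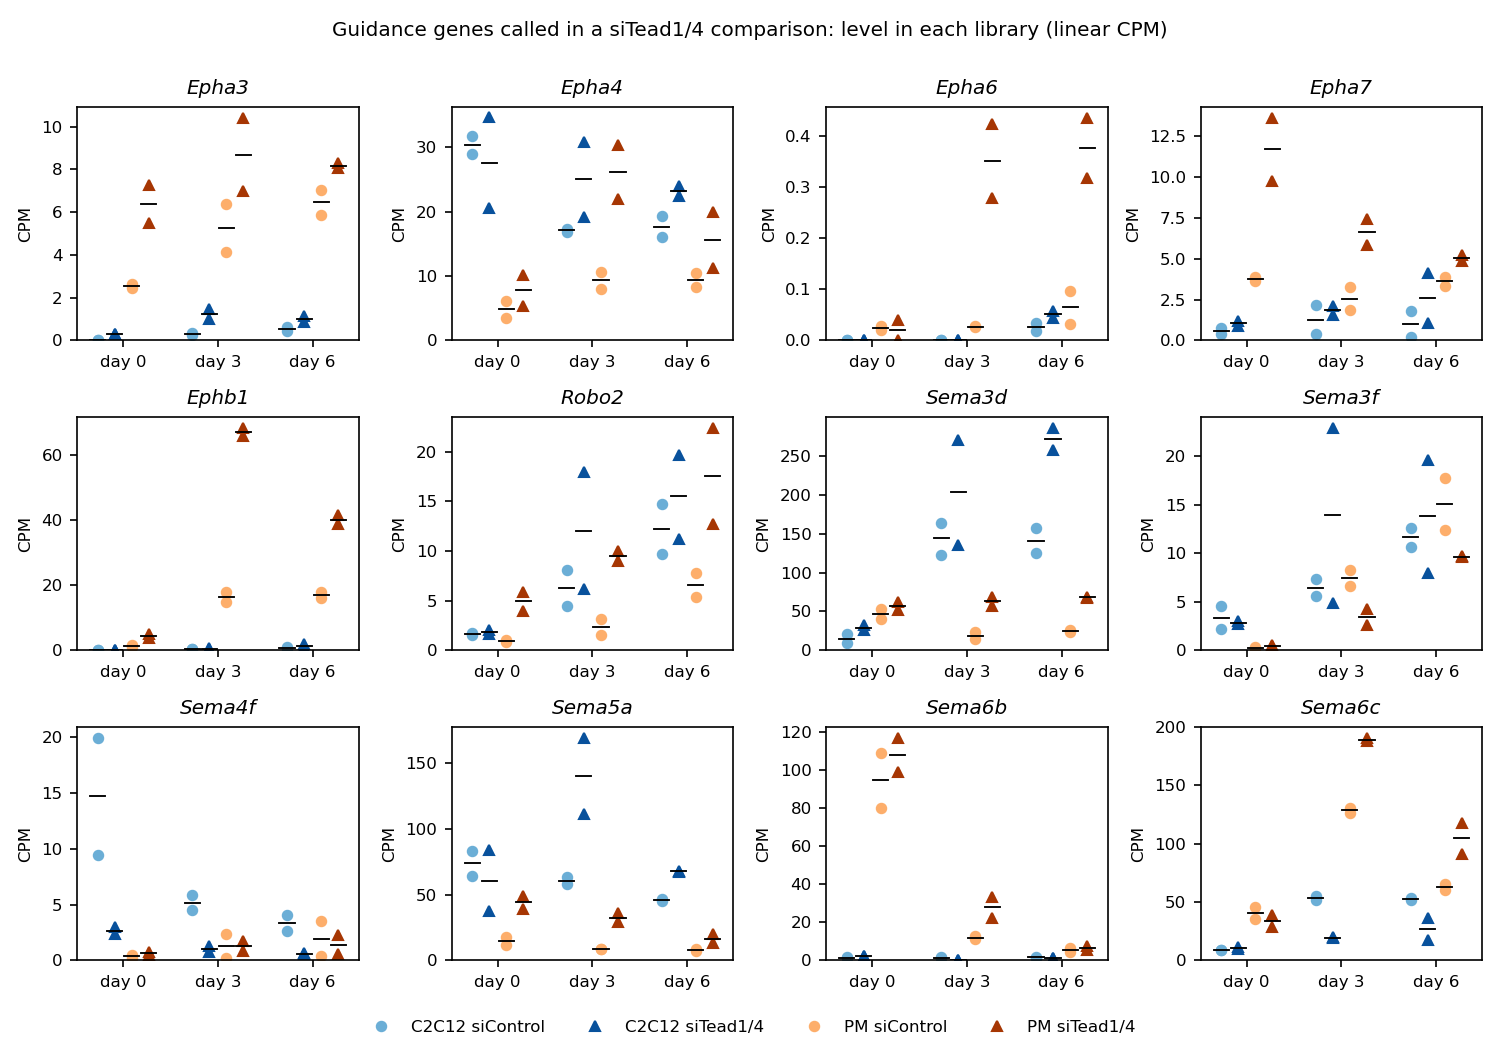
Level in CPM (linear axes) of the 12 guidance genes called in any of the 6 siTead1/4 comparisons, 1 point per library and a bar at the mean of 2, by day. In PMs (orange circles siControl, brown triangles siTead1/4) the siTead1/4 libraries of Ephb1 and Sema5a lie above the siControl libraries at each day, and in C2C12 cells (light and dark blue) those of Sema4f lie below.

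The calls differed in how much they rested on single libraries and on the fit. Of the 20 calls over the 6 siTead1/4 comparisons, 16 higher and 4 lower, 5 were made under each of the 9 alternative fits run for them. These were Ephb1 and Sema5a at days 0 and 3 and Sema3d at day 3, all in PMs. At day 0 in PMs, Epha3, Epha7 and Robo2 were not called without siControl replicate 1, siControl replicate 2 or siTead1/4 replicate 1, which left 2, 3 and 2 called genes. Epha7 was not called in the fit of all 24 libraries either. Their log2 fold changes over all alternatives stayed between 1.10 and 1.50, 1.36 and 1.85, and 2.05 and 2.61. At day 3 in PMs, 4 to 7 genes were called when 1 library was left out, with 4 without siControl replicate 1 and 5 without siTead1/4 replicate 1. Epha4 was not called when any 1 of the 4 libraries was left out, nor Sema6b and Sema3f without siControl replicate 1, siControl replicate 2 or siTead1/4 replicate 1. Epha6 was not called by DESeq2 or without siControl replicate 1, siControl replicate 2 or siTead1/4 replicate 2, Epha7 not without siControl replicate 1 or siTead1/4 replicate 2, and Robo2 not without siControl replicate 2 or siTead1/4 replicate 1. In the fit of all 24 libraries Epha7 and Sema3f were not called. Over all alternatives of day 3 these log2 fold changes ran from 1.22 to 1.70 for Epha4, 0.89 to 1.46 for Sema6b, -1.53 to -0.83 for Sema3f, 3.23 to 3.82 for Epha6, 1.01 to 1.82 for Epha7 and 1.57 to 2.62 for Robo2. At day 6 neither Ephb1 (1.16 to 1.32) nor Sema3d (1.34 to 1.55) was called in the fit of all 24 libraries or without siControl replicate 1, siControl replicate 2 or siTead1/4 replicate 1, and without siTead1/4 replicate 2 Ephb1 alone was called. DESeq2, the fit with no filter on low counts and the replicate block each called Robo2, Sema5a and Slit3 at day 6 in addition.

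Promoter sequences were examined for the genes with these calls, since Tead factors bind the MCAT motif. RefSeq windows (GRCm38.p6) of 300 bases, from 250 before to 50 after a start, were found for 61 of the 71 genes, in 77 windows, and the others are Dcc, Efnb3, Ntn1, Plxna1, Plxna4, Sema3b, Sema3f, Sema6a, Slit1 and Unc5d. The MCAT letters CATTCCA or CATTCCT, searched on both strands, occurred in 7 of the 77 windows (9.09%), beside 9.35% of all 32851 windows. They lie in windows of Epha1, Epha2, Ntn3, Ntng1, Plxnd1, Robo2 and Sema4a. Among the 12 genes called in a siTead1/4 comparison, 11 had windows and 1 of their 16 windows held the motif, that of the middle of 3 Robo2 starts. The E-box letters CANNTG, which myogenic bHLH factors bind and which read the same on both strands, occurred in 50.6% of the windows of guidance genes and 72.3% of all windows. The median GC content of these windows was 64% and 52.7%.

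The stretches below are shown for the genes whose PM calls held in each alternative, and for the Robo2 window with an MCAT match. The first 3 are the 250 bases before the start, with any E-box in capitals, and the last is the final 30 bases of the Robo2 window, with the MCAT letters in capitals, each written 5′ to 3′ along the strand of the gene. The coordinates are chr9:102354694-102354943 for Ephb1, chr15:32244563-32244812 for Sema5a, chr5:12382916-12383165 for Sema3d and chr16:75092721-75092750 for Robo2.
Ephb1: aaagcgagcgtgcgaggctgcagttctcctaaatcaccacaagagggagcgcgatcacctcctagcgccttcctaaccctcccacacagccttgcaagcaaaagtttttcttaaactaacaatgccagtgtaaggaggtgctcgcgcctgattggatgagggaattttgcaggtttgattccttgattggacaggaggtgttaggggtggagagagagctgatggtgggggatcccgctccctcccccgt
Sema5a: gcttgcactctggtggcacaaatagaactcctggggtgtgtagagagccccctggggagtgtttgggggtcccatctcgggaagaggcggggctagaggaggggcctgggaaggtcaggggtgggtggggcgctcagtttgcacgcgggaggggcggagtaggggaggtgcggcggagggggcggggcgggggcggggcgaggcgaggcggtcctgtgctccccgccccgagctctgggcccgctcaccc
Sema3d: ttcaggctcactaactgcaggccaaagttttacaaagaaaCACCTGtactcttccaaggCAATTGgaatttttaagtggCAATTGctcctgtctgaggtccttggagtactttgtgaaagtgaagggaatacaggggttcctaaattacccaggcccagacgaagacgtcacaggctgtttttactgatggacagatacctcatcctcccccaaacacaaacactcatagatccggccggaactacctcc
Robo2: tctctttttttctgctggacacaCATTCCT
Sema3d has 3 E-boxes in this stretch and Ephb1 and Sema5a have none. Whether E-boxes go with the silencing calls was not tested. GC content was 54% for Ephb1, 72% for Sema5a and 46.8% for Sema3d. The matches describe these letters only, and binding was not measured here. The authors' ChIP-seq in C2C12 cells placed most Tead4 sites away from transcription starts, outside windows like these.

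In C2C12 cells edgeR called 3 guidance genes, Sema4f, Sema6c and Epha3, of which Epha3 was also called in PMs. At day 0, 0 of 60 tested guidance genes were called higher and 1 lower, where 0.137% and 0.301% of the 15303 tested genes were called. At day 3, 1 was called higher and 2 lower, against 0.190% and 1.08%. At day 6 no guidance gene was called, against 0.0131% and 0.0327% of all genes. At that day edgeR gave an unadjusted p under 0.05 for 10 guidance genes and DESeq2 called 2. The number called at day 3 depended on the fit, since DESeq2 called 8 genes in C2C12 cells and 8 in PMs, and edgeR with no filter on low counts 11 and 10. Both of these called Sema5a and Sema6b in C2C12 cells as well, where edgeR after the filter gave changes of 1.18 ± 0.33 and -1.71 ± 0.37 in log2 (adjusted p = 0.12 and 0.057). The biological coefficient of variation, as edgeR estimated it, was 0.242 for the C2C12 libraries and 0.15 for the PM libraries. The median log2 fold change of guidance genes was 0.05, 0.02 and 0.18 at days 0, 3 and 6, beside 0.02, 0.01 and 0.01 over all genes.

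Sema4f (chr6:82861879-82889763, minus strand), a transmembrane semaphorin, was called lower at days 0 and 3 in C2C12 cells. It was at 19.9 and 9.4 CPM in siControl and 2.37 and 2.96 CPM in siTead1/4 cells at day 0, and at 5.83 and 4.51 CPM against 0.741 and 1.3 CPM at day 3. These were falls of 2.46 ± 0.43 and 2.36 ± 0.44 on the log2 scale (edgeR adjusted p = 0.041 and 0.034). At day 6 it was at 4.09 and 2.61 CPM against 0.692 and 0.532 CPM, with the same log2 fold change of -2.46 but an edgeR adjusted p of 0.12. The libraries did not overlap on any day. In PMs Sema4f was at 0.202 to 3.53 CPM in siControl and 0.474 to 2.28 CPM in siTead1/4 libraries, and was not called.

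Sema6c (chr3:94964379-94977946, plus strand), a transmembrane semaphorin known from muscle, fell at day 3 in C2C12 cells, from 51.7 and 55.5 CPM in siControl to 19.4 and 19.8 CPM in siTead1/4 cells. The log2 fold change was -1.48 ± 0.29 (edgeR adjusted p = 0.041). At day 6 the levels were 51.6 and 53.7 CPM against 17.8 and 36.7 CPM, without overlap and without a call (log2 fold change -0.94). Epha3 rose at day 3 from 0.26 and 0.364 CPM to 1.01 and 1.48 CPM, by 1.95 ± 0.38 on the log2 scale (edgeR adjusted p = 0.041), and at day 0 it was at 0.0281 and 0.0355 CPM against 0.282 and 0.293 CPM (difference of 3.03 in log2, adjusted p from edgeR = 0.058). Epha3 was the only guidance gene that edgeR called with a rise in each cell type, at day 3 in C2C12 cells and at day 0 in PMs.

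Sema4f at day 0 was not called when any 1 of the 4 libraries of its comparison was left out, and it was not called at days 0 and 3 in the fit of all 24 libraries. At day 3 none of the 3 genes was called without siControl replicate 1, siControl replicate 2 or siTead1/4 replicate 2, and Epha3 alone was called without siTead1/4 replicate 1. Their log2 fold changes over all alternatives stayed between -2.81 and -2.01 for Sema4f, -1.54 and -1.42 for Sema6c and 1.66 and 2.22 for Epha3, and that of Sema4f at day 0 between -2.91 and -1.82. The muscle differentiation genes summed to 13300 and 19400 CPM in the siTead1/4 libraries of C2C12 day 3 against 34200 and 39000 CPM in siControl, with 5 of 29 tested called lower. Among neuron markers Nefm and Nefl were called lower with siTead1/4 at days 0 and 3. Ngfr was called lower at day 0, as 1 of 8 tested Schwann cell markers whose median log2 fold change was 0.27. At day 3 Itgam was called lower, as 1 of 5 tested macrophage markers with a median of 0.46. Scara5 was called higher, as 1 of 10 tested fibroblast markers with a median of -0.07. The cyclin Ccnd1 was called higher, as 1 of 16 proliferation genes with a median of -0.50. These single calls do not describe their lists. The part of these lists in the guidance results was not tested.

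**Figure D3:**
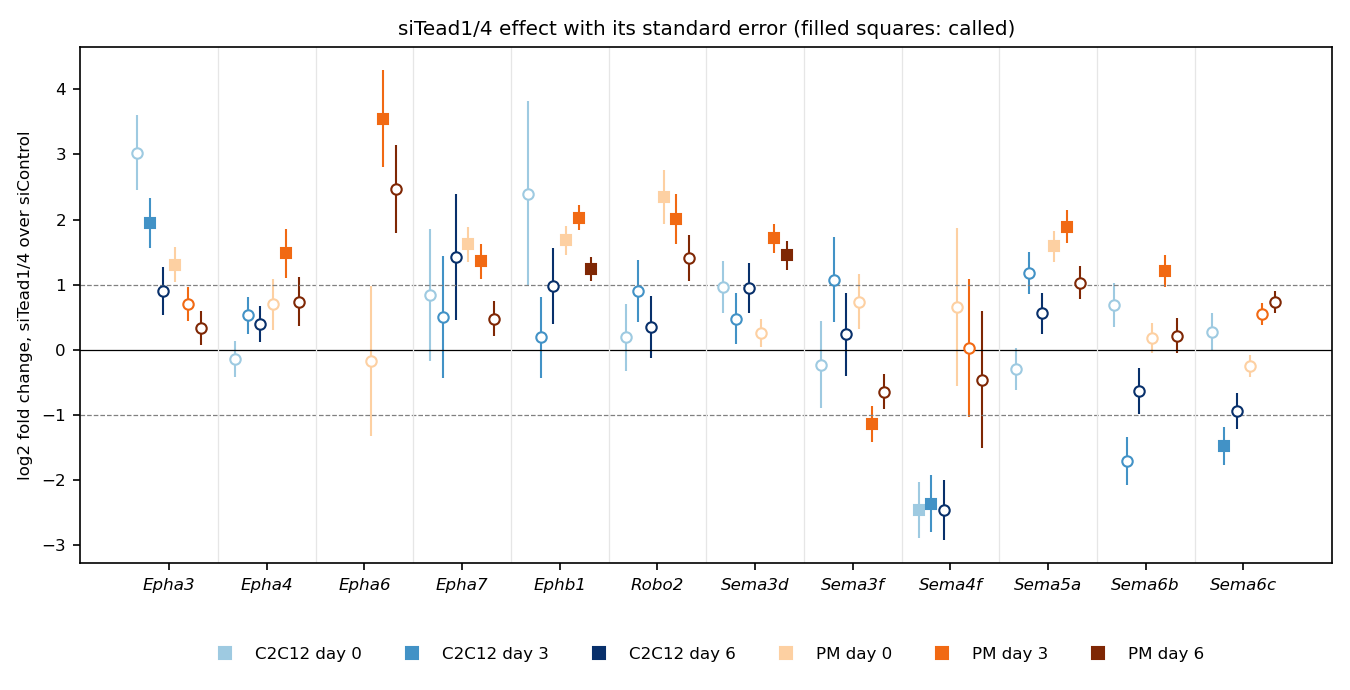
Log2 fold change of siTead1/4 over siControl with its standard error for the same 12 genes, in C2C12 cells (blue) and PMs (orange and brown) at days 0, 3 and 6. Filled squares are called, open circles are not, dashed lines mark a log2 fold change of 1 and -1. Sema4f is below -2 at each day in C2C12 cells, and Ephb1 is above 1 at each day in PMs.

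The difference in silencing effect between PMs and C2C12 cells was tested over all 24 libraries with an interaction term. No guidance gene was called at day 0, where 0.00591% and 0% of the 16926 tested genes were called in the higher and lower direction, nor at day 6, where 0.0295% and 0.00591% were called. At an unadjusted edgeR p under 0.05 there were 12 and 7 guidance genes, and DESeq2 called 2 and 1. At day 3 the effect was higher in PMs for 3 guidance genes and lower for 0, against 1.02% and 0.236% of all genes. Sema6b differed by 2.91 ± 0.43 on the log2 scale (edgeR adjusted p = 0.0033), being at 1.09 and 1.86 CPM in siControl and 0.476 and 0.44 CPM in siTead1/4 C2C12 cells, in which its own fall was not called. Sema6c differed by 2.01 ± 0.34 (edgeR adjusted p = 0.0082), with 126 and 131 CPM in siControl and 188 and 191 CPM in siTead1/4 PMs. Ntn4, a secreted netrin, differed by 1.40 ± 0.32 (edgeR adjusted p = 0.038), with 76.3 and 60.3 CPM against 41.4 and 39.8 CPM in C2C12 cells and 35.6 and 44.0 CPM against 62.0 and 62.7 CPM in PMs. For Ephb1 at day 3 the interaction was 1.80 ± 0.60 (edgeR adjusted p = 0.18) and for Sema5a at day 0 it was 1.88 ± 0.44 (edgeR adjusted p = 0.33), so the differences between the cell types in these genes did not pass the test. Without PM siControl replicate 1 of day 3, Sema6c and Ntn4 were not called (1.99 and 1.26), and Ntn4 was called without C2C12 siTead1/4 replicate 1 alone among the 8 libraries left out in turn. Sema6b was called in each of these fits.

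Differentiation changed more guidance genes than silencing did. In siControl C2C12 cells, 19 of 60 were called higher and 8 lower at day 3 against day 0, where 16.0% and 12.7% of all tested genes were called. At day 6 against day 0, 19 were called higher and 11 lower, against 17.1% and 14.0% of all genes. No guidance gene, and 0% of all genes in either direction, was called between days 6 and 3, where edgeR gave an unadjusted p under 0.05 for 3 guidance genes and DESeq2 called 0. In siControl PMs, 16 of 64 were called higher and 14 lower at day 3 (17.5% and 14.9% of all genes), and 16 higher and 16 lower at day 6 (20.2% and 15.3% of all genes), each against day 0. Between days 6 and 3, 3 were called higher and 2 lower in PMs, against 2.22% and 0.582% of all genes.

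The rises shared by both cell types at day 3 covered 11 genes, namely Sema3b, Sema3c, Sema4d, Sema6c, Slit1, Slit2, Ntn5, Ephb1, Ephb3, Robo2 and Unc5a. The share of all genes called higher in both cell types was not counted, so this number only describes the list. Sema4d, a transmembrane ligand of B-class plexins, rose from 1.49 and 1.16 CPM to 14.2 and 13.6 CPM in C2C12 cells and from 13.6 and 16.2 CPM to 74.6 and 69.0 CPM in PMs. These were rises of 3.36 ± 0.65 and 2.22 ± 0.17 on the log2 scale (adjusted p from edgeR = 0.0026 and 1.9e-06). Ephb1 had 1 count over both C2C12 libraries of day 0, and its ratio at day 3 of 43 has a 95% counting interval of 7.32 to 1740. In PMs it rose 11.4-fold at day 3. Ntn5, a netrin-like gene, had 3 counts over both day 0 libraries of C2C12 cells and reached 2.34 and 3.83 CPM at day 3, a ratio of 96 with a 95% counting interval of 32.5 to 468. A share of 25.9% of the exon bases of Ntn5 also belongs to another gene, so its counts are uncertain. The calls of Robo2 and Unc5a in C2C12 cells were each lost without 3 of the 4 libraries in turn, and in PMs that of Robo2 was lost in the fit of all 24 libraries and without 3 of the 4 libraries, and that of Slit2 without siControl day 0 replicate 2.

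The falls shared at day 3 were those of Epha2 and Efna5, an A-class ephrin. The share of all genes called lower in both cell types was not counted either. A share of 59.9% of the exon bases of Efna5 also belongs to other genes, chiefly a same-strand entry of that name, so its counts are uncertain. Epha2 (chr4:140857155-140885299, plus strand) fell from 229 and 285 CPM to 65.9 and 43.9 CPM in C2C12 cells and from 135 and 142 CPM to 29.4 and 32.2 CPM in PMs. The changes were -2.27 ± 0.23 and -2.23 ± 0.12 on the log2 scale (edgeR adjusted p = 6.1e-05 and 2.8e-07), close to each other in size. The proliferation list of 16 genes fell with it, all 16 called lower at day 3 in each cell type, and its part in this fall was not tested. Efnb2, a B-class ephrin, fell in PMs from 125 and 139 CPM to 26.2 and 29.3 CPM at day 3, and in C2C12 cells was called at day 6 alone, with 82.7 and 136 CPM at day 0 and 38.5 and 29.0 CPM at day 6. By class, 11 of 35 tested ligands rose and 6 fell in C2C12 cells at day 3 and 11 of 35 rose and 7 fell in PMs, and among receptors 8 of 25 rose and 2 fell in C2C12 cells and 5 of 29 rose and 7 fell in PMs. Of the 8 ephrins, 0 were called higher and 4 lower in C2C12 cells at day 3 and 0 higher and 3 lower in PMs, where 16.0% and 12.7% of all genes were called in C2C12 cells and 17.5% and 14.9% in PMs. In C2C12 cells the fall of Efna5 was not called when any 1 of the 4 libraries was left out, and in PMs not without siControl day 3 replicate 1. The calls of Efna1, Efna3 and Efnb3 in C2C12 cells were each lost without 2 or 3 of these libraries in turn.

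The change at day 3 differed between the cell types for 20 of 65 guidance genes. It was higher in PMs for 4 and lower for 16, where 3.79% and 7.44% of all genes were called. Sema3d was the only gene called in opposite directions, rising in C2C12 cells from 9.26 and 20.9 CPM to 123 and 164 CPM and falling in PMs from 40.9 and 53.8 CPM to 14.3 and 23.9 CPM. The interaction was -4.55 ± 0.50 (edgeR adjusted p = 9.7e-06). How many of all genes were called in opposite directions was not counted. Plxnb3, a B-class plexin, rose in C2C12 cells from 0.169 and 0.249 CPM to 9.81 and 9.94 CPM and was flat in PMs, with 4.66 and 5.72 CPM and then 5.64 and 3.67 CPM (interaction -5.66 ± 0.38, edgeR adjusted p = 1.2e-07). Robo1 went from 172 and 192 CPM to 22.0 and 39.3 CPM in PMs, whereas in C2C12 cells it was at 19.2 and 34.3 CPM and then 19.0 and 34.1 CPM (interaction -2.56 ± 0.54, edgeR adjusted p = 0.004). The count of 20 was 12 without C2C12 siControl replicate 2 of day 0, 13 without C2C12 siControl replicate 2 of day 3, 13 without PM siControl replicate 2 of day 0 and 11 without PM siControl replicate 1 of day 3.

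**Figure D4:**
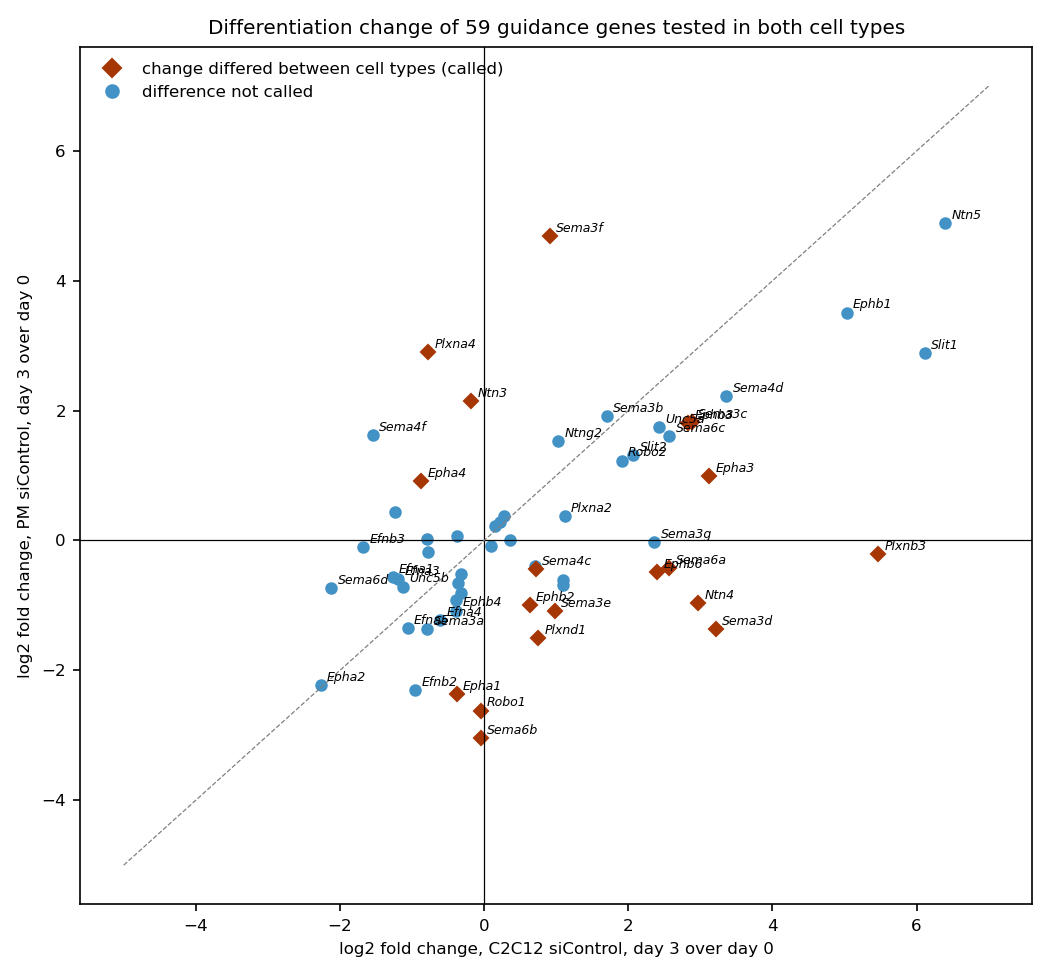
Log2 fold change at day 3 over day 0 in siControl C2C12 cells (horizontal) and siControl PMs (vertical) for the 59 guidance genes tested in both, with the line of equal change dashed. Diamonds mark genes whose change differed between the cell types by the interaction test. Sema3d lies right of and below 0, and Ntn5, Ephb1 and Slit1 lie at the upper right.

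Slits rose with differentiation, as both tested in C2C12 cells and all 3 tested in PMs were called higher at day 3. Slit3 went from 1.27 and 0.789 CPM at day 0 to 14.4 and 7.71 CPM at day 3 and 44.3 and 38.9 CPM at day 6 in siControl PMs. Its rises were 3.34 ± 0.35 from day 0 to 3 and 1.90 ± 0.30 from day 3 to 6 on the log2 scale (edgeR adjusted p = 1.9e-05 and 0.0085). Slit2 rose from 3.5 and 2.03 CPM to 7.21 and 7.18 CPM and then 21.3 and 19.4 CPM, and Robo2 from 0.89 and 1.04 CPM to 3.17 and 1.54 CPM and then 5.37 and 7.79 CPM. Both were called again between days 3 and 6 (log2 fold change 1.49 ± 0.23 and 1.48 ± 0.38, edgeR adjusted p = 0.0082 and 0.048). Sema6b and Sema6c were called lower between these days, by 1.11 ± 0.26 and 1.04 ± 0.17 (edgeR adjusted p = 0.036 and 0.0096). When 1 of these 4 libraries was left out, 1 to 4 guidance genes were called, with 1 without siControl day 3 replicate 1, 3 without siControl day 3 replicate 2 and 2 without siControl day 6 replicate 1. The call of Robo2 was lost in each of these 4 fits and in the fit of all 24 libraries, that of Sema6b in the latter and in 3 of the 4, that of Sema6c in 2 of them and that of Slit2 without siControl day 3 replicate 1. The summed fibroblast markers moved the same way, at 557 and 572 CPM, 1490 and 1610 CPM, and 3920 and 2860 CPM at days 0, 3 and 6, and their part in the rise of Slits was not tested.

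**Figure D5:**
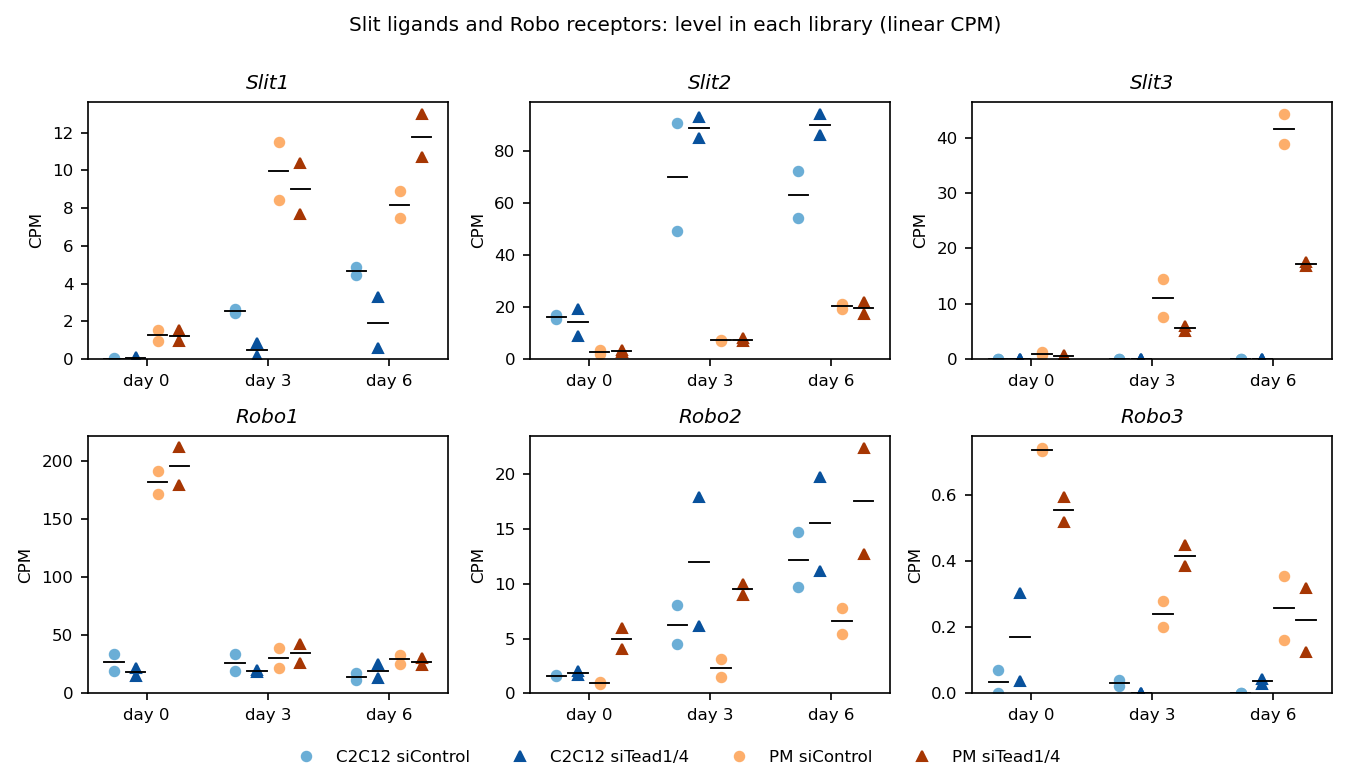
Level in CPM (linear axes) of the Slits and of Robo1, Robo2 and Robo3 in each library, by day, with the mean of 2 as a bar, C2C12 in blue and PMs in orange and brown. Slit3 rises to 44.3 and 38.9 CPM in siControl PMs and is near 0 in each C2C12 library, Slit2 is higher in C2C12 cells, and Robo1 is at 172 and 192 CPM in siControl PMs of day 0.

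Differences between the cell types were as broad. At day 0, 21 of 65 guidance genes were called higher and 11 lower in siControl PMs than in siControl C2C12 cells, where 16.3% and 10.5% of all genes were called. At day 3 the counts were 11 and 18 (17.2% and 12.6% of all genes), and at day 6 they were 13 and 12 (15.7% and 9.22%). The genes higher in PMs at all 3 days were 8, Epha3, Ephb1, Robo3, Sema4d, Sema6b, Sema6d, Slit3 and Unc5a. Those lower were 4, Efna1, Nrp2, Sema5a and Slit2. For calls at all 3 days no share over all genes was counted, so these numbers only describe the list. The call of Robo3 at day 3 was lost without C2C12 siControl replicate 1, C2C12 siControl replicate 2 or PM siControl replicate 1 of that day. That of Sema6d at day 0 was lost without C2C12 siControl replicate 1 or PM siControl replicate 2. That of Sema4d at day 6 was lost without C2C12 siControl replicate 1.

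Unc5a was at 9.39 and 8.34 CPM in PMs at day 0 against 0.113 and 0.0178 CPM in C2C12 cells, a log2 fold change of 7.24 ± 0.38 (edgeR adjusted p = 3.1e-10), and at 28.8 and 31.3 CPM against 0.347 and 0.234 CPM at day 6. Slit3 had no count in either C2C12 library of day 3, and PMs were at least 333-fold higher than the level of 3 counts over both libraries. Robo3, a Robo with a role in axons that cross the midline, had no count in the C2C12 libraries of day 6 and was at least 7.08-fold higher in PMs. Sema6b was at 1.38 and 1.6 CPM in C2C12 cells at day 0 against the 80.4 and 109 CPM of PMs, a log2 fold change of 5.98 ± 0.32 (edgeR adjusted p = 4.2e-10), and the difference was 1.76 ± 0.29 at day 6, after the fall in PMs.

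In the other direction, Nrp2 was at 103 and 135 CPM in C2C12 cells and 24.0 and 15.2 CPM in PMs at day 0 (a log2 change of -2.60 ± 0.36, with an edgeR adjusted p of 2e-05). Slit2 was at 49.3 and 90.8 CPM against 7.21 and 7.18 CPM at day 3 (a log2 change of -3.28 ± 0.34, with an edgeR adjusted p of 1.1e-06). Sema5a was at 64.4 and 82.7 CPM against 17.6 and 11.5 CPM at day 0 (a log2 change of -2.33 ± 0.32, with an edgeR adjusted p of 2.2e-05). Its siTead1/4 PM libraries of day 0, at 49.1 and 39.2 CPM, stayed below these C2C12 levels. Ephb6, an Eph receptor without kinase activity, was at 146 and 138 CPM in C2C12 cells and 4.15 and 15.4 CPM in PMs at day 3 (a log2 change of -3.85 ± 0.57, with an edgeR adjusted p of 4.3e-05).

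The genes that act with these ligands and receptors, a list of 86 co-receptors, adaptors and downstream enzymes, had a few calls on silencing. Of the 81 tested in PMs, 1 was called higher and 3 lower at day 0 (1.50% and 1.10% of all genes), 2 higher and 1 lower at day 3 (2.10% and 1.20%) and 1 higher and 0 lower at day 6 (0.465% and 0.279%). Of the 75 tested in C2C12 cells, 0 were called higher and 0 lower at day 0 (0.137% and 0.301% of all genes), 1 higher and 1 lower at day 3 (0.190% and 1.08%) and 1 higher and 0 lower at day 6 (0.0131% and 0.0327%). The median log2 fold change of the list lay between -0.12 and 0.06 in these comparisons. Lingo1, a Nogo receptor partner, was called 4 times, rising at day 3 from 10.2 ± 2.37 to 55.3 ± 23.2 CPM (SD, n = 2 each) in PMs and from 1.02 ± 0.137 to 5.17 ± 0.208 CPM in C2C12 cells. These were rises of 2.43 ± 0.33 and 2.31 ± 0.32 on the log2 scale (adjusted p from edgeR = 0.0023 and 0.015), and at day 6 they were 1.64 ± 0.32 and 2.44 ± 0.32 (edgeR adjusted p = 0.039 and 0.045). Ablim3, an actin-binding protein of muscle and neurons, fell in C2C12 cells at day 3 from 160 ± 17.4 to 38.7 ± 10.1 CPM (edgeR adjusted p = 0.016). In PMs at day 0, the actin-binding gene Ablim1 and the Rac activator Tiam1 fell by 1.23 and 1.09 on the log2 scale and Cntn1, a contactin, rose by 1.58, and at day 3 the Eph-binding exchange factor Ngef fell by 1.15 and Flrt3, which binds Unc5 receptors, rose by 1.63 (edgeR adjusted p between 0.0014 and 0.038 for these 5).

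Markers of cells other than myoblasts were examined, since guidance genes are known from nerves and vessels, and in bulk RNA fewer cells of a type and less RNA per cell cannot be told apart. The 15 neuron markers summed to 104 to 651 CPM in C2C12 cells and 48 to 90.3 CPM in PMs, and Rbfox3, which marks mature neurons, had no count in either library of 4 C2C12 groups and of all 6 PM groups. The 12 Schwann cell markers summed to 88.1 to 504 CPM in C2C12 cells and 133 to 404 CPM in PMs. Sox10 was at 0 in both libraries of 4 C2C12 groups, and Cdh19 in those of every C2C12 group. In PMs both had counts in every group. The only Schwann cell marker at 0 in both libraries of a PM group was Gfra3, in siTead1/4 at day 0. Macrophage markers did not pass 9.46 CPM in sum. Endothelial markers summed to 3.11 to 7.71 CPM in C2C12 cells. In PMs their sum was 19.6 to 39.9 CPM in the 6 replicate 1 libraries and 10.3 to 20.3 CPM in the 6 replicate 2 libraries, higher in replicate 1 in each of the 6 groups. Robo4, a Robo of endothelial cells that was singled out after its values were seen, followed the same split, at 0.0577 to 0.926 CPM in PM replicate 1 and at most 0.0326 CPM in PM replicate 2, with no count in C2C12 cells. The endothelial sum was 30.8 and 14.8 CPM in siTead1/4 against 19.6 and 10.3 CPM in siControl PMs at day 0. At day 3 it was 39.9 and 20.3 CPM against 30.8 and 12.1 CPM. At day 6 it was nearly equal, with 23.6 and 12.5 CPM against 23.4 and 12.3 CPM. The groups overlapped at each day. The median log2 fold change of the 12 tested endothelial markers was 0.46, -0.06 and -0.48 at these days. The sums at days 3 and 6 therefore do not describe a rise of most markers. Of 12 tested endothelial markers, Tek was called higher with siTead1/4 in PMs at day 0 and Vwf at day 3, and Robo4 was not called. The part of these markers in the other guidance results was not tested.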

How the data were processed

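RNA-seq counts of polyadenylated RNA, from libraries made with a kit that does not mark strand, were analysed for 24 libraries of C2C12 cells and PMs, 2 in each of 12 groups taken from the labels. The authors deposited 1 table of whole-number counts per gene for mm9, after mapping with TopHat2. The submitters' processing notes name TopHat2 2.0.10, Bowtie2 2.1.0, CASAVA 1.8.2, HTSeq 0.6.1 and DESeq2 1.8.1. Its columns normalized by the authors were not used, and 36 columns of 12 libraries outside the sample list were not used.

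Counts were tested in R 4.3.3 with the edgeR 4.0.16 quasi-likelihood test after filterByExpr and TMM scaling, in 1 fit of 12 libraries per cell type (15303 genes in C2C12 cells, 16144 in PMs), and in 1 fit of all 24 libraries (16926 genes) for comparisons between cell types and interactions. P-values were adjusted by Benjamini-Hochberg over all genes tested. Ratios of genes with few counts in a group carry exact 95% intervals, and the level of 3 counts is the floor where a group is at 0. Both cover counting error only. A paired reading of the replicate numbers is not stated in the sources used here.

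The genes and lists were chosen with earlier results of these data known. The genes given library by library are those called in a siTead1/4 comparison, with the 2 most abundant members of each family per kilobase given by their ranges, and others described beside a comparison were chosen after their values were seen. Of the 71 genes, 6 share over 10% of exon bases with another gene (Efna3, Efna4, Efna5, Ntn5, Ntng2 and Plxna1), and their counts are uncertain. Promoter windows are from RefSeq (GRCm38.p6), matched by symbol, and their coordinates belong to another build than the mm9 coordinates of genes. Alternatives were DESeq2 1.42.0, median-of-ratios size factors, no filter, a replicate block, 1 fit of all libraries and each library left out. On simulated counts with 200 genes changed by a log2 of 2, edgeR called 190 of them with 12 false calls for C2C12 siTead1/4 day 3 (15374 genes), 200 with 0 for PM siTead1/4 day 3 (16161 genes) and 197 with 14 for PMs against C2C12 cells at day 3 (17068 genes). DESeq2 called 191 with 27 false calls, 197 with 0 and 194 with 10. Each simulation gave all genes and groups 1 biological coefficient of variation and left genes with few reads unchanged. The real siTead1/4 replicates of C2C12 cells stood further apart than those of siControl, so these numbers are not the power of that comparison. One gene of the list of guidance partners is counted there but not reported here by name.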

Additional observations from a re-analysis of the deposited data

Results flagged for a closer look

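Each value here is a difference between PMs and C2C12 cells in the same contrast that passed the interaction test of edgeR over 24 libraries, given as PM minus C2C12 on the log2 scale. For the effect of siTead1/4 at day 3, the differences were 2.91 for Sema6b, 2.01 for Sema6c and 1.40 for Ntn4.

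For the change from day 0 to day 3 in siControl cells, 4 genes had a higher change in PMs. These were the secreted semaphorin Sema3f (3.79), the plexin Plxna4 (3.71), the netrin Ntn3 (2.36) and the receptor Epha4 (1.79). The change was lower in PMs for 16 genes. Among plexins these were Plxnb3 (-5.66), Plxnc1 (-4.97) and Plxnd1 (-2.23). Among semaphorins they were Sema3d (-4.55), Sema6a (-2.97), Sema6b (-2.97), Sema3e (-2.06), Sema4c (-1.14) and Sema3c (-1.04). Among Eph receptors they were Ephb6 (-2.87), Epha3 (-2.11), Epha1 (-1.96), Ephb2 (-1.61) and Ephb3 (-1.0), and the others were Ntn4 (-3.91) and Robo1 (-2.56). Cell type, strain and culture differ together in this comparison and cannot be told apart.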

How the results depend on the processing

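Of the log2 fold changes of single genes recomputed under the alternatives, 152 kept their call, 64 kept their direction but not their call, and 0 changed direction. Counts of called guidance genes moved by over 1.5 times as follows. For siTead1/4 in C2C12 cells at day 0 (1 gene called), DESeq2 called 3, the fit with no filter 4, the replicate block 2 and the fit of all 24 libraries 2, and at day 3 (3 genes) these gave 8, 11, 5 and 7. At day 6 (0 genes) DESeq2 called 2 and no filter 3. For siTead1/4 in PMs, no filter gave 8 at day 0 (5 genes), and at day 6 (2 genes) DESeq2, no filter and the replicate block gave 5 each, by adding Robo2, Sema5a and Slit3, and the fit of all 24 libraries 0. Between days 6 and 3, no filter gave 1 in C2C12 cells (0 genes), and in PMs (5 genes) the replicate block gave 11 and all 24 libraries 3. For the interaction with siTead1/4, DESeq2 called 2 and no filter 4 at day 0 (0 genes), DESeq2 5, no filter 11 and the replicate block 5 at day 3 (3 genes), and each of these called 1 at day 6 (0 genes). The cause of these shifts was not tested.

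Leaving out 1 library gave 0 to 0 genes for siTead1/4 in C2C12 cells at day 0, 0 to 1 at day 3, and 2 to 5, 4 to 7 and 0 to 1 in PMs at days 0, 3 and 6. It gave 1 to 4 for PMs between days 6 and 3, 0 to 1, 1 to 4 and 0 to 1 for the interaction with siTead1/4 at days 0, 3 and 6, and 11 to 19 for the interaction with differentiation. A library left alone in its group was assumed to vary like the other groups. The replicate numbers are shared between groups, but nothing says that they mark 1 animal, culture or day. Deviations of same-day siControl and siTead1/4 libraries of 1 number correlated at 0.347, 0.406 and 0.52 in PMs and at -0.177, 0.0934 and 0.42 in C2C12 cells, with 2 pairs each. Over all 15 pairs of PM groups the correlations ran from 0.064 to 0.52. Endothelial sums and Robo4 in PMs, and Sema4f in siControl PMs of days 3 and 6, also split by replicate number. This is a hint from the data and not the design, so the fits without the block were kept. The missing calls of Robo2, Sema5a and Slit3 in PMs at day 6 depend on that choice. Genes under about 1 CPM, such as Epha6, Robo3 and Epha3 in C2C12 cells, rest on few counts.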

Other observations

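Among the 12 guidance genes called in a siTead1/4 comparison, Epha3, Epha6 and Robo2 lie on chromosome 16, on which 6 of the 71 guidance genes lie. This was noticed after the values were seen and was not tested. Sema4f in PMs followed the replicate number, at 2.33 and 3.53 CPM in siControl replicate 1 of days 3 and 6 and 0.202 and 0.391 CPM in replicate 2.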
